A study of Homo sapiens with 2 samples.

Results

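The miR-28, miR-151 and miR-708 family is a group of related hairpins, and its members were taken as all rows of the deposited table whose hairpin was mir-28, mir-151a, mir-151b or mir-708. These gave 7 of the 1497 mature miRNAs in the table, from 4 of its 1095 hairpins, and all 7 had reads in both libraries. They are hsa-miR-28-5p, hsa-miR-28-3p, hsa-miR-151a-5p, hsa-miR-151a-3p, hsa-miR-151b, hsa-miR-708-5p and hsa-miR-708-3p, written without the prefix hsa- from here on. The family was chosen by its RPM levels and the ratio of its arms, seen beforehand, so both are given as a description and were not tested. The data are small RNA sequencing of A375 cells, an established human melanoma line, grown for 24 h and then exposed to DMSO, a solvent, for 48 h. Both libraries belong to this group, as replicates that the labels describe as independent, and the labels name no other treatment and no genotype. The labels do not say whether they came from separate cultures, so the spread between them may be technical. Replicate 1 held 10816826 read assignments and replicate 2 held 15428446, and values are RPM, reads per 1000000 read assignments. Of 10 miRNAs associated with melanocytes or melanoma, 6 reached 10 RPM in both libraries. The melanocyte miRNA miR-211-5p had only 3 and 2 reads, against 29920 and 38534 for its relative miR-204-5p. Markers of other cell types (15 listed, 10 in the table) held 0.0256% and 0.0304% of the miRNA pool, and 2 of them reached 10 RPM in both. These were the red cell miRNA miR-486-5p (171 and 200 RPM) and the epithelial miRNA miR-141-3p (15.6 and 23.2 RPM).

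A miRNA hairpin is cut by Drosha and Dicer into a short duplex, and 1 strand of it, from the 5p or the 3p side of the hairpin, is usually kept by an Argonaute protein while the other decays. The kept strand finds messenger RNAs mainly through its seed, bases 2 to 8. MiR-28-5p and miR-708-5p are known to share a seed. MiR-151a-5p, though related to both, has a seed that differs from theirs. The miR-28 and miR-151 hairpins lie within genes of cell adhesion, LPP and PTK2 (focal adhesion kinase), and the miR-708 hairpin within TENM4, a teneurin of the cell surface.

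The sequences below show how the arms of mir-28 and mir-708 resemble each other and which seeds they carry, and miR-3139 is shown because it has the seed of miR-708-5p. They are the mature sequences listed by RefSeq on GRCh38.p14, which held 3 of the 7 members, and capitals mark the seed.
miR-28-3p: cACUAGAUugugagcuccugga
miR-708-3p: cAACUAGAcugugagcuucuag
miR-708-5p: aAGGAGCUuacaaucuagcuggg
miR-3139: uAGGAGCUcaacagaugccuguu

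MiR-28-3p (chr3:188688834-188688855, plus strand) and miR-708-3p (chr11:79402032-79402053, minus strand) matched best when shifted by 1 base, with 17 of 21 facing bases identical. The differences, with positions counted from the 5′ end of miR-28-3p and its base first, were C1A, U8C, C17U and G20A. The longest shared run was 8 bases, from base 9 of miR-28-3p and base 10 of miR-708-3p. Unshifted, the sequences matched at 2 of 22 bases. The shift moves the seed, so these 3p arms, although alike, have different seeds, and neither seed occurred in any other of the 2370 mature human miRNAs with a sequence in that table. The seed of miR-708-5p (chr11:79402077-79402099, minus strand) occurred in 1 other, miR-3139 (chr4:143343469-143343491, plus strand). Members without a listed sequence, miR-28-5p among them, could not be counted in these searches. Beyond the seed, bases 2 to 8, no longer run was shared by miR-3139 and miR-708-5p.

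All 4 hairpins lie within introns of protein-coding genes in GENCODE 29 (GRCh38), a build that may differ from the one behind the deposited values. MIR28 lies on chromosome 3 from 188688781 to 188688866 in LPP, MIR151A on chromosome 8 from 140732564 to 140732653 in PTK2, and MIR708 on chromosome 11 from 79402022 to 79402109 in TENM4, each on the strand of its host. MIR151B, on chromosome 14 from 100109419 to 100109514, lies within EVL but on the minus strand, opposite to the host gene. EVL encodes an actin-regulating protein. The host transcripts were not measured here.

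The family held 1.56% of the miRNA pool in replicate 1 and 1.78% in replicate 2 (1.67% ± 0.155, SD, n = 2), and most of it came from mir-151a. Its arms made up 80.1% and 80.4% of the family's RPM, those of mir-28 19.0% and 18.7%, miR-151b 0.894% and 0.841%, and those of mir-708 0.0457% and 0.0316%. The order of the hairpins was thus the same in both libraries, and the gaps between them were far larger than the spread. The 2 arms of mir-151a summed to 4.21 times those of mir-28 in replicate 1 and to 4.30 times in replicate 2. Ligation of adapters favours some sequences, so ratios between different miRNAs are not exact molar ratios.

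**Figure D1:**
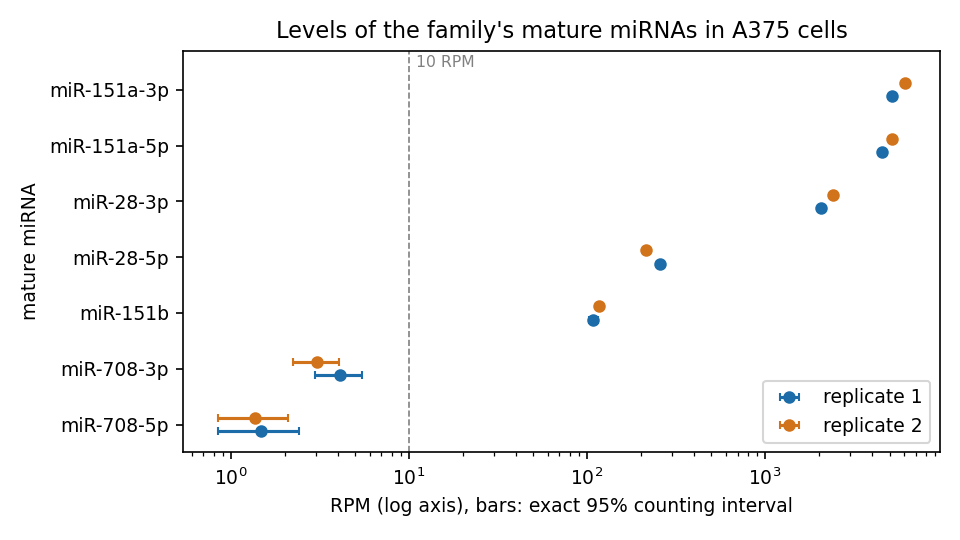
RPM (log axis) of the 7 mature miRNAs of the family in replicate 1 (blue) and replicate 2 (orange), with exact 95% counting intervals that are narrower than the points where reads were many. The 2 arms of miR-708 lie below the 10 RPM line and the other 5 above 100 RPM.

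MiR-151a-3p was the highest member, with 5165 RPM in replicate 1 and 6099 RPM in replicate 2 (mean 5632 ± 660 RPM, number 30 of 1497 by mean). MiR-151a-5p stood just below it at 4547 and 5130 RPM (4839 ± 412 RPM, number 31). Within each library the 3p arm was the higher, at 1.14 times the 5p arm in replicate 1 and 1.19 times in replicate 2. Both arms were higher in replicate 2. Across libraries, the 5p value of replicate 2 came close to the 3p value of replicate 1, and the ranges of mean ± SD overlapped. MiR-151a is known from work on liver cancer, where it is linked to migration together with its host PTK2. The nearest other miRNA above both arms was let-7i-5p, at 5928 ± 980 RPM, whose range overlapped that of each arm. The nearest below was miR-1307-5p at 4647 ± 262 RPM, which overlapped the range of miR-151a-5p but not that of miR-151a-3p.

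MiR-28-3p came next in the family, at 2048 and 2395 RPM (2221 ± 245 RPM, number 46). MiR-28-5p, the arm with the seed of miR-708-5p, stood much lower, at 257 and 216 RPM (236 ± 29.4 RPM, number 116). The arms did not overlap: the lowest 3p value was far above the highest 5p value. MiR-28-3p lay between miR-148b-3p (2248 ± 335 RPM) and let-7e-5p (2142 ± 40.9 RPM), and miR-28-5p between miR-589-5p (259 ± 6.88 RPM) and miR-193b-3p (227 ± 3.84 RPM). The ranges of mean ± SD of these 4 neighbours overlapped those of their members. Such overlap was likely from the start, since neighbours were picked as the nearest in mean RPM.

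MiR-151b had 108 and 117 RPM (113 ± 6.32 RPM, number 158), next to miR-574-5p (115 ± 6.62 RPM) and miR-194-5p (111 ± 18.2 RPM), both picked as nearest in mean RPM and within its spread. Its mature sequence is nearly identical to miR-151a-5p, and how the authors assigned reads that fit both is not given in the sources used here. Elsewhere, miR-365a-3p and miR-365b-3p held equal counts (871 and 1525 reads each). Reads of miR-151b may therefore also be counted in miR-151a-5p, and so more than once in the family's sum. MiR-151b made up 2.38% and 2.29% of the level of miR-151a-5p, a nearly constant share. Its value is therefore uncertain, and the table does not show whether the hairpin in EVL was the source of those reads.

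Both arms of mir-708 stood below 10 RPM. MiR-708-3p had 44 reads in replicate 1 and 47 in replicate 2, or 4.07 RPM (exact Clopper-Pearson 95% interval 2.96 to 5.46) and 3.05 RPM (2.24 to 4.05). MiR-708-5p had 16 and 21 reads, or 1.48 RPM (0.845 to 2.40) and 1.36 RPM (0.843 to 2.08). The 3p arm was above the 5p arm in both libraries, and within each library the intervals did not overlap. Counting intervals leave out PCR duplication and the spread between cultures. MiR-708-5p is the arm usually described as the active strand of this hairpin. By mean it was number 572 and miR-708-3p number 461.

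Among the miRNAs named here with the seed of miR-708-5p, nearly all reads thus came from miR-28-5p, at 174 and 158 times the RPM of miR-708-5p. MiR-3139, with the same seed, had 2 and 7 reads (0.185 and 0.454 RPM). The related 3p arms were further apart still, miR-28-3p being 503 and 786 times miR-708-3p, although the counting error of miR-708-3p alone makes those ratios imprecise. A minimum of 10 RPM in each library was met by 5 of the 7 family members, counted as expressed, beside 22.4% of all mature miRNAs in the table (335 of 1497). These 5 also reached 100 RPM.

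The arms of the 3 hairpins with 2 listed arms were then compared, as the share of 5p reads among the reads of both arms. The share in mir-151a was 46.8% (95% interval 46.5 to 47.1, of 105059 reads) in replicate 1 and 45.7% (45.5 to 45.9, of 173257 reads) in replicate 2. In mir-28 it was 11.2% (10.8 to 11.6, of 24935 reads) and 8.26% (7.99 to 8.53, of 40276 reads). In mir-708 it was 26.7% (16.1 to 39.7) and 30.9% (20.2 to 43.3), from only 60 and 68 reads. All 3 hairpins gave more 3p than 5p reads in both libraries, mir-151a by 1.14 and 1.19 times, mir-28 by 7.96 and 11.1 times and mir-708 by 2.75 and 2.24 times. None of the intervals reached 50%, but they cover counting error only and are not a test of arm preference. In mir-151a and in mir-28 the intervals of the 2 libraries did not overlap, so the libraries differed by more than counting error. The wide intervals of mir-708 came from its depth, and did not overlap those of mir-151a or mir-28.

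**Figure D2:**
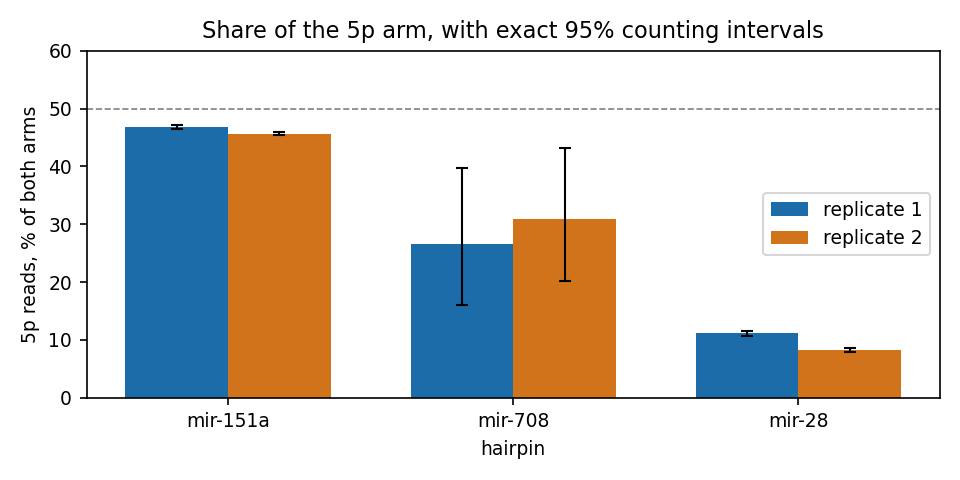
Reads of the 5p arm as a percentage of the reads of both arms in mir-151a, mir-708 and mir-28, for replicate 1 (blue) and replicate 2 (orange), with exact 95% counting intervals as bars and 50% as a dashed line. The shares fall from 46.8% and 45.7% in mir-151a to 11.2% and 8.26% in mir-28, and all lie below 50%.

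The table held 137 hairpins whose 5p and 3p arms were both present and summed to a mean of at least 100 RPM. In 80 of them the 5p arm exceeded the 3p arm by over 2-fold in each library, in 47 (34.3%) the reverse was true, and 10 met neither condition. On the log2 scale with a pseudocount of 1 RPM, the 5p over 3p ratio of mir-28 was -2.99 and -3.47 (-3.23 ± 0.34), which put it among the 47 and at number 41 of 137 from equal arms. That of mir-151a was -0.18 and -0.25 (-0.22 ± 0.05), among the 10 and at number 4 in this order, which goes by the mean ratio. That of mir-708 was -1.03 and -0.78 (-0.90 ± 0.18), outside this set because of its low level, and reads per arm without a pseudocount gave -1.31. The median hairpin of the 137 had arms 47.0-fold apart, or 28.5-fold over the 101 whose arm names belong to no other hairpin. The arms of mir-151a and mir-28 were therefore less unequal than those of the median hairpin.

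**Figure D3:**
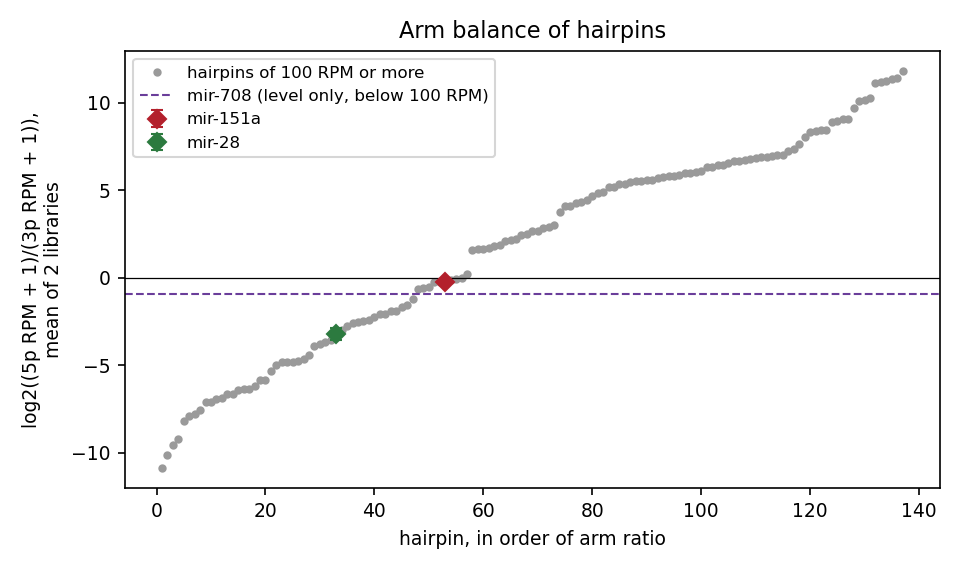
Mean log2 ratio of 5p to 3p RPM (pseudocount 1 RPM, 2 libraries) for 137 hairpins of 100 RPM or more, in ascending order, with mir-151a and mir-28 as diamonds (bars: SD, n = 2, smaller than the diamond for mir-151a) and the ratio of mir-708 as a dashed line. The ratio of mir-151a lies at -0.22, close to equal arms, and that of mir-28 at -3.23, toward the 3p arm.

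The 10 hairpins with arms under 2-fold apart by their mean ratio differed widely in depth, and mir-151a led them with 10471 RPM over both arms, followed by mir-199b with 1540 RPM. Its SD of 0.05 between the libraries was second to the 0.02 of mir-324, which stood at 111 RPM. By mean ratio, 3 hairpins were nearer to equal arms than mir-151a. These were mir-193a (-0.02 ± 0.77), mir-361 (-0.07 ± 0.42) and mir-424 (-0.12 ± 0.15), each with a larger spread. In mir-193a (-0.57 and 0.52) and mir-361 (-0.37 and 0.23) the libraries had opposite signs, which cancelled in the mean. In each library mir-193a was farther from equal arms than mir-151a (-0.18 and -0.25). The hairpins nearest to mir-151a in arm ratio were mir-3065 (-0.24 ± 0.07), mir-199b (-0.24 ± 0.15) and mir-424. The 3p arm of mir-199b is also made by the mir-199a hairpins, so its own ratio was not resolved. Nearest to mir-28 were mir-508, mir-19a and mir-331, at distances of 0.23, 0.31 and 0.46 and all with the 3p arm higher. With the pseudocount of 1 RPM, the nearest to mir-708 (-0.90) were mir-574 (-0.64 ± 0.17), mir-423 (-1.19 ± 0.12) and mir-324 (-0.59 ± 0.02). Its neighbours depend on the pseudocount, since without one mir-708 stood at -1.31, farther from mir-574 and mir-324. Likeness here is the distance between mean log2 ratios over 2 libraries.

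A balanced hairpin at this level leaves a large amount of the lower arm. Among the lower arms of the 137 hairpins, with a median of 30.3 RPM, miR-151a-5p at 4839 RPM was number 2, after miR-21-3p at 11868 RPM and ahead of miR-100-3p at 1785 RPM. As a higher arm, miR-151a-3p was number 36. Each hairpin entered these orders separately, so an arm name shared by several hairpins was counted more than once. Over single mature miRNAs, miR-151a-3p was number 30. Counted by hairpin in the same way, miR-28-5p was number 19 among the lower arms and miR-28-3p number 53 among the higher ones. Over single mature miRNAs, miR-28-3p was number 46.

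The 3p arms of this family begin with C where the sequence was listed (miR-28-3p and miR-708-3p), while miR-708-5p begins with A. Argonaute proteins are known to favour strands that begin with U or A. In 86 hairpins of 100 RPM or more with both sequences listed and no arm name shared, 61.6% of the higher arms began with U, 17.4% with A and 16.3% with C, against 23.3%, 25.6% and 38.4% of the lower arms. MiR-28-3p, the higher arm of its hairpin, and miR-708-3p, higher in reads, thus carried a first base that was less frequent among higher arms than among lower ones.

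For context, 50 conserved hairpins in introns of protein-coding genes were listed, all of them in the table. Of these, 34 had both arms and 100 RPM or more, with 19 favouring the 5p side, 12 the 3p side and 3 balanced by the same rule, and a median of 56.1-fold between arms. The highest mature miRNAs of the list were miR-191-5p (53448 ± 11946 RPM), miR-27b-3p (50503 ± 2374 RPM) and let-7f-5p (13317 ± 2025 RPM), the last of which has a copy elsewhere. By the sum of arms, 7 listed hairpins were above mir-151a, 17 above mir-28 and 46 above mir-708. Hairpins that share an arm name with another hairpin were kept in these counts and in the median. For example, mir-26a-1 (12187 RPM) and mir-26a-2 (12213 RPM) both stood above mir-151a with the same miR-26a-5p. By mean ratio, 1 of the 34 was nearer to equal arms than mir-151a, namely mir-361, whose libraries had opposite signs (-0.37 and 0.23).

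The libraries were compared with each other to see how far the members moved without any difference in condition. This compares 2 libraries, not conditions. MiR-151a-3p, miR-28-3p, miR-151a-5p and miR-151b were higher in replicate 2, by 1.18, 1.17, 1.13 and 1.08 times. MiR-28-5p, miR-708-3p and miR-708-5p were higher in replicate 1, by 1.19, 1.34 and 1.09 times. No member was called at an adjusted p under 0.05 with a fold above 2 (Fisher's exact test of reads, two-sided, with Benjamini-Hochberg adjustment over 869 miRNAs), and 4.6% of all tested miRNAs were called. Without the fold limit 4 of the 7 were called, beside 34.5% of all tested, and these were the members with most reads.

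In that test the adjusted p was 5.1e-215 for miR-151a-3p (log2 difference 0.24, 55873 and 94102 reads) and 6.3e-11 for miR-28-5p (-0.25, 2782 and 3327 reads). It was 0.091 for miR-151b, 0.32 for miR-708-3p and 0.95 for miR-708-5p, the 3 members with the fewest reads. The median absolute log2 difference was 0.23 over the 7 members and 0.33 over all 869. With means of at least 10 RPM it was 0.23 for 5 members and 0.25 for all 346. The members thus moved about as much as other miRNAs.

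**Figure D4:**
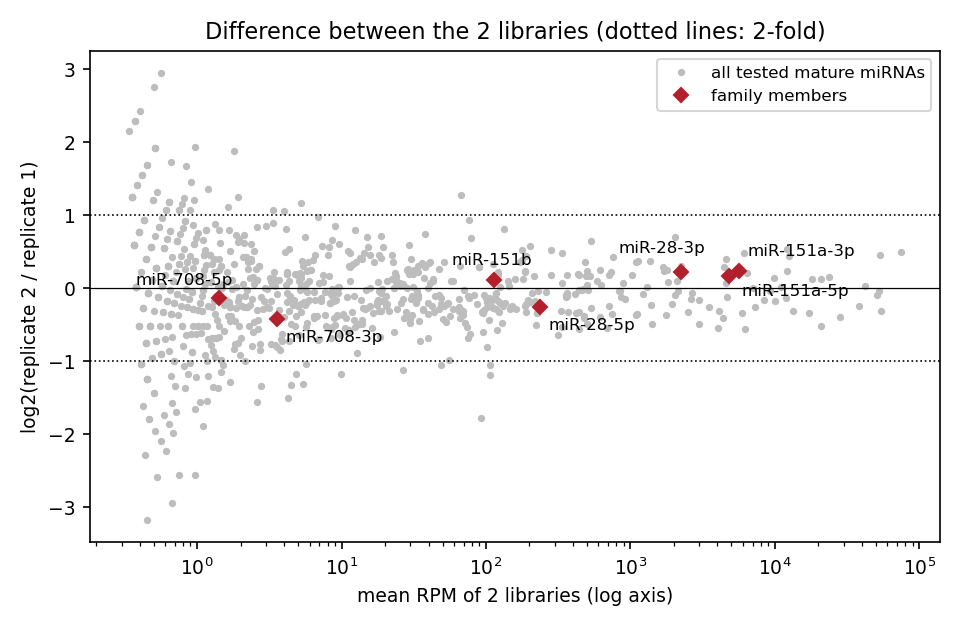
Log2 of replicate 2 over replicate 1 (reads per total, 0.5 reads added) against mean RPM (log axis) for 869 mature miRNAs (grey) and the 7 family members (red diamonds), with 2-fold differences dotted. All 7 members lie within the 2-fold lines, from -0.42 for miR-708-3p to 0.24 for miR-151a-3p.

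The arms of mir-28 moved in opposite directions, the 3p arm being higher in replicate 2 and the 5p arm in replicate 1. As a result the ratio of its arms shifted by 1.39-fold toward the 3p arm in replicate 2 (log2 -0.48, adjusted p = 2.2e-33, two-sided Fisher's exact test on the reads of both arms, Benjamini-Hochberg over 137 hairpins). In mir-151a, where both arms were higher in replicate 2, the shift was 1.05-fold (log2 -0.07, adjusted p = 2.4e-08 in the same exact test). By size, the shift of mir-28 was number 55 of 137 and that of mir-151a number 123, with a median of 0.33 on the log2 scale over all. Neither reached 2-fold, as 5.11% of hairpins did with an adjusted p under 0.05. Without a fold limit both were called, along with 59.1% of hairpins, so at this depth such a call says little. For mir-708, outside the tested set, the shift was 1.22-fold toward the 5p arm.

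Ratios between the hairpins showed the same contrast. MiR-151a-3p stood at 2.52 times miR-28-3p in replicate 1 and 2.55 times in replicate 2 (2.53 ± 0.0174), whereas miR-151a-5p stood at 17.7 and 23.8 times miR-28-5p (20.7 ± 4.32). The 3p arms thus kept nearly the same ratio in both libraries, while in the 5p arms miR-151a-5p was higher in replicate 2 (log2 difference 0.17) and miR-28-5p lower (-0.25).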

How the data were processed

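The submitters' processing notes name CASAVA 1.8 and cutadapt 1.2.1, an adapter trimmer. Which aligner, genome build and miRNA release followed, and how multiply matching reads were treated, is not given in the sources used here. The deposited values are RPM as computed by the authors, written with decimal commas, and each of the authors' columns sums to 1000000 over 1546 rows. All values (100% within 0.01 reads) were whole multiples of the smallest above 0 in their column, 0.0924 and 0.0648 RPM, so reads were recovered. Both columns were matched to samples by description. The pool is the highest copy per mature name, summed, which was 77.6% and 78.3% of the column totals.

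Members and lists were chosen with earlier results of these data known. Named miRNAs were the members, their neighbours in mean RPM, the 3 hairpins nearest in arm ratio with no shared arm name, miRNAs with a member's seed, and the top 3 of the intronic list; other names were chosen after their values were seen. The tests, run in Python 3.11.15 with SciPy 1.17.1 and pandas 2.3.3, were checked on simulated data. Miss rates of low miRNAs were not measured. Fisher's exact tests used miRNAs with at least 10 reads in sum, and folds added 0.5 reads to each count. The planned tests needed no between-group model. Intervals cover counting error only, since PCR reads are not independent molecules.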

Additional observations from a re-analysis of the deposited data

How the results depend on the processing

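The family's share of the pool was 1.30% with copies of one mature name summed and 1.85% with the most abundant miRNA, miR-100-5p, left out, against 1.67%. Without 1 replicate it ranged from 1.56% to 1.78%. The count of expressed members was 5 at 100 RPM or without either replicate, and 7 at 1 RPM. The log2 arm ratio of mir-708 was -1.31 with no pseudocount, -1.25 with 0.1 RPM and -0.25 with 10 RPM, and -1.03 to -0.78 with 1 replicate; at this level it depends on the pseudocount, and its direction was the same in each. The arm ratios of mir-28 (-3.47 to -2.99 with 1 replicate) and mir-151a (-0.25 to -0.18) moved by less than their SD under every pseudocount tried. With no fold limit, 4 members differed between the libraries and 2 hairpins shifted in arm balance, against 0 and 0 at 2-fold or 1.5-fold. Scaling to the median ratio over the 335 expressed miRNAs (a shift of 0.10 on the log2 scale) left the direction of all 7 members as it was, and the adjusted p of miR-151b in Fisher's exact test fell from 0.091 to 0.00028. Of all miRNAs, 40 were called with the minimum of reads and 34 without, none of them members. No paired analysis was possible because there is 1 group.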
